A study of Mus musculus with 8 samples.

Results

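The transcripts described here encode 10 enzymes of muscle purine metabolism: the AMP deaminases Ampd1, Ampd2 and Ampd3, adenylosuccinate synthetase (Adssl1) and lyase (Adsl), adenylate kinase (Ak1), and the salvage and breakdown enzymes Hprt, Aprt, Xdh and Pnp. They were chosen by symbol, and all 10 were found among the 21833 gene symbols of the count tables. All 10 also passed the filter on low counts, which kept 12755 genes. RNA was sequenced from gastrocnemius, a mostly fast calf muscle, of male C57BL/6J mice aged 12 weeks. All 8 mice had been injected in the peritoneum with 100 µL of pooled K/BxN serum, which transfers antibody-driven arthritis, on day 0 and again on day 2. The RA group (n = 4) had serum alone, and the RA+Dipy group (n = 4) received 25 mg/kg of dipyridamole per day as well, beginning on day 0. The muscle was collected on day 16. The genotype label reads K/BxN for both groups although the design text describes C57BL/6J recipients of serum, and no muscle without arthritis was analysed here. The series presents dipyridamole, which blocks the uptake of adenosine into cells, as a preventive treatment for the muscle loss of arthritis. The comparison asks whether transcripts of the enzymes that handle AMP inside the fibre differ when the drug is given.

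The purine nucleotide cycle runs in the cytoplasm of working muscle. AMP deaminase turns AMP into IMP and ammonia, adenylosuccinate synthetase joins IMP to aspartate, and adenylosuccinate lyase releases fumarate and returns AMP. Adenylate kinase supplies the AMP by making ATP from ADP. IMP that is dephosphorylated leaves the cycle as inosine, which purine nucleoside phosphorylase splits to hypoxanthine. Hypoxanthine is either rebuilt to IMP by Hprt or oxidised by xanthine dehydrogenase to uric acid, while Aprt rebuilds AMP from adenine.

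The muscle forms of AMP deaminase, adenylosuccinate synthetase and adenylate kinase made up nearly all transcripts of their families, and none of the 10 genes passed the test between the groups. Of the 10 genes, 0 passed an adjusted p of 0.05 in edgeR, where 0 of all 12755 genes tested passed (0%). At an unadjusted p under 0.05 there were also 0 of the 10, against 488 of all genes (3.83%). The values of the groups overlapped for all 10 genes, and 2.72% of all genes had groups that did not overlap. DESeq2 and limma-voom likewise called 0 genes, with 740 and 379 at an unadjusted p under 0.05. Weighting the libraries in limma-voom gave 133 calls, 0 of them among the 10. The 10 genes were split, with 5 fold changes above 0 and 5 below, and their median log2 fold change (RA+Dipy over RA) was 0.02, against 0.02 over all genes tested.

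The libraries held 16.4 to 50.6 M (mega) counts. Their 9 fast-fibre markers summed to 133524 to 212157 CPM (TMM-scaled counts per M of library), a high sum in all 8. Among them Tnnc2 was at 0.880 to 3.10 CPM. This value is uncertain as a level: 74.0% of its exon bases are shared with a gene on the opposite strand. Counting without strand cannot tell such reads apart. RA replicate 4 and RA+Dipy replicate 1 stood apart from the other 6. Single fast-fibre markers moved both ways there. Atp2a1 was 8217 and 2117 CPM (17760 to 21923 elsewhere), and Pvalb 64431 and 46679 CPM (11540 to 21474 elsewhere). In these libraries 40.9% and 20.1% of 4634 well expressed genes (median over 20 CPM) lay more than 2-fold from the gene's median over all 8 libraries, against 0.0432% to 0.842% elsewhere. Results are therefore given with and without these libraries. Without them edgeR still called 0 genes, with 1461 of 12796 (11.4%) at an unadjusted p under 0.05, 1 of them among the 10 (Aprt), and the median of the 10 was −0.06.

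The levels of the 10 transcripts fell into tiers when divided by gene length. On the scale of CPM per kb of exon (RPKM, mean ± SD over the 8 libraries), Ak1 stood first at 918 ± 321, followed by Adssl1 at 400 ± 127 and Ampd1 at 298 ± 35.7. Ak1 exceeded Adssl1 in all 8 libraries without overlap of their ranges, whereas the ranges of Adssl1 and Ampd1 overlapped. The middle tier held Hprt (21.5 ± 9.07 RPKM), Aprt (19.9 ± 10.3) and Adsl (17.5 ± 4.92), whose ranges overlapped one another. The lowest tier held Xdh (2.16 ± 0.890 RPKM), Ampd2 (1.34 ± 0.576), Ampd3 (1.29 ± 0.492) and Pnp (0.715 ± 0.0879), and each neighbour in that order overlapped the next. Between tiers the ranges did not overlap. With the longest transcript as the length, the order within the middle tier became Aprt, Adsl, Hprt (34.6, 26.6 and 21.5 RPKM), and Ampd3 (1.77) stood above Ampd2 (1.63).

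**Figure D1:**
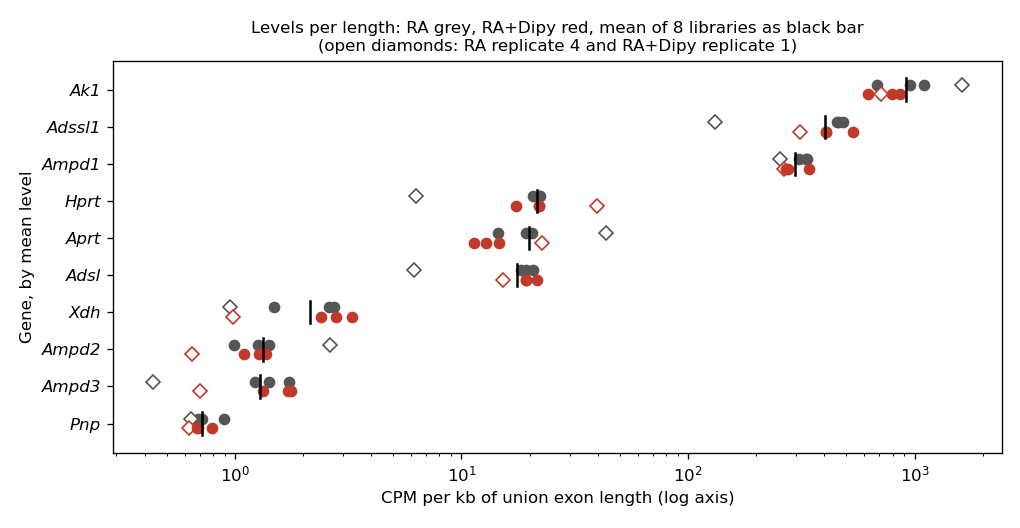
Level of each gene in CPM per kb of union exon length (log axis) in every library, with genes ordered by the mean of the 8 libraries (black bar). The genes form 3 tiers: Ak1, Adssl1 and Ampd1 above 100, Hprt, Aprt and Adsl near 20, and the other 4 below 4. Open diamonds are RA replicate 4 and RA+Dipy replicate 1, which hold the lowest values of Xdh and Ampd3.

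Among the AMP deaminases, Ampd1, the form of skeletal muscle fibres, made up 98.8% to 99.5% of the summed RPKM in each library. Ampd2, the form best known from liver and other non-muscle tissues, made up 0.242% to 1.02%. Ampd3, known from red blood cells and heart, made up 0.170% to 0.613%. Adssl1, the muscle adenylosuccinate synthetase, likewise held 98.9% to 99.6% of the sum with Adss, the form of other tissues, and Ak1 held 93.0% to 97.3% of the sum over Ak1 to Ak9. This dominance was seen in both groups and in both libraries that stood apart.

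The start regions of the synthetase pair are shown because they belong to a muscle and a general form of one enzyme, whose levels lay far apart in every library. Each line gives the 250 bases before the RefSeq start (GRCm38.p6), with E-boxes (CANNTG, the same on both strands) in capitals. Adssl1 lies at chr12:112619797-112620046 on the plus strand and Adss at chr1:177796510-177796759 on the minus strand.
Adssl1: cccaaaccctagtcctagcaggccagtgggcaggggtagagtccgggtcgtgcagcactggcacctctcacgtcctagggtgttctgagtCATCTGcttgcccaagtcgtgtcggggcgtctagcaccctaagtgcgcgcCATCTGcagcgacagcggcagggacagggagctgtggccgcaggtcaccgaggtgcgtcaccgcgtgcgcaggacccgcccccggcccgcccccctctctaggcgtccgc
Adss: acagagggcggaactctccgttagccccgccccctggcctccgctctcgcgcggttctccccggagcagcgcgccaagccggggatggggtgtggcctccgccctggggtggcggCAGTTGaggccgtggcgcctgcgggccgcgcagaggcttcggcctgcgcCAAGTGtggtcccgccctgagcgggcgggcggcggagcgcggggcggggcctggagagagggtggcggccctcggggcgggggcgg
Each window held 2 E-boxes, the motif class bound by myogenic factors, and 31.8% of 32851 RefSeq windows of the same length held at least 2. The Adssl1 window held 2 GC boxes (GGGCGG, both strands) and the Adss window 9, and 32.7% of all windows held at least 1. GC content was 68.4% for Adssl1 and 78.8% for Adss, against a median of 52.4%. These matches describe the letters of the window and no binding was measured. Of the 10 genes, 8 had a window in that table, and Ampd1 and Xdh did not.

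Ampd1 varied little, with a coefficient of variation of 12.2% in RA and 12.7% in RA+Dipy. Its gene lies on chromosome 3 at 103074014 to 103099720 (GENCODE vM21, GRCm38). It stood at 1175, 1093, 1190 and 900 CPM in RA replicates 1 to 4, and at 938, 1219, 963 and 981 CPM in RA+Dipy replicates 1 to 4. The groups overlapped: the highest value lay in RA+Dipy and the lowest in RA. The log2 fold change was −0.09 (SE 0.26, 95% interval −0.66 to 0.48, edgeR adjusted p = 0.943). Without the 2 libraries that stood apart it was −0.12 (−0.47 to 0.22).

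The minor deaminases were recorded from few reads. Ampd3 (chromosome 7, 110768206 to 110812405) stood at 6.91, 9.76, 7.97 and 2.45 CPM in RA and at 3.96, 9.93, 7.47 and 9.64 CPM in RA+Dipy. RA replicate 4 and RA+Dipy replicate 1 were lowest, and the other 6 libraries spanned 6.91 to 9.93 CPM. Between the groups it had a log2 fold change of 0.19 (SE 0.42, interval −0.74 to 1.12, edgeR adjusted p = 0.924). Without both of those libraries the value was 0.15 (−0.26 to 0.56). Ampd2 (chromosome 3, 108074062 to 108086651) stood at 7.43, 6.62, 5.16 and 13.7 CPM in RA and at 3.37, 5.76, 6.66 and 7.20 CPM in RA+Dipy. The highest value was RA replicate 4 and the lowest RA+Dipy replicate 1, so that its log2 fold change of −0.50 (SE 0.36, adjusted p = 0.882) was 0.03 without them. Ampd2 and Ampd3 share 8.31% and 8.42% of their exon bases with other annotated genes, mostly on the opposite strand, and counting without strand cannot tell such reads apart.

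**Figure D2:**
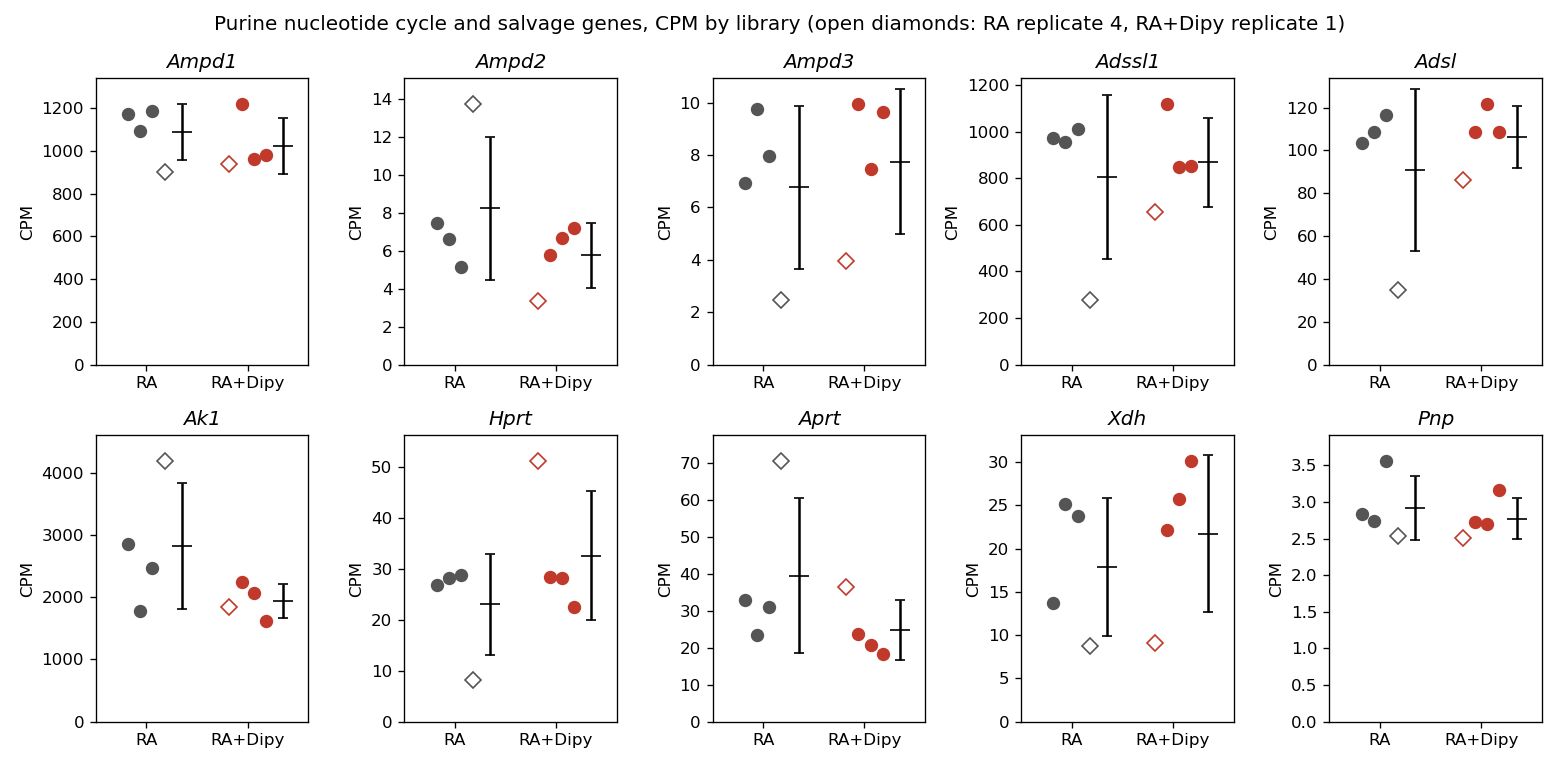
CPM of the 10 genes in each library (y axis from 0), RA in grey and RA+Dipy in red, with the group mean and SD (n = 4) as black bars. Open diamonds are RA replicate 4 and RA+Dipy replicate 1. The groups overlap in all 10 panels, and in Adssl1, Adsl and Hprt the RA diamond lies below all filled RA points.

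Both enzymes that return IMP to AMP had overlapping values in the groups, with a single low RA library. Adssl1 (chromosome 12, 112620045 to 112641360) stood at 974, 955, 1014 and 276 CPM in RA and at 655, 1118, 849 and 853 CPM in RA+Dipy. RA replicate 4 held less than any other library. Its log2 fold change was 0.11 (SE 0.41, interval −0.80 to 1.02, edgeR adjusted p = 0.954), −0.17 without RA replicate 4 and −0.05 (−0.41 to 0.30) without both libraries that stood apart. Adsl (chromosome 15, 80948490 to 80970946), which also serves de novo purine synthesis, stood at 104, 108, 117 and 34.9 CPM in RA and at 86.2, 109, 121 and 108 CPM in RA+Dipy. The fold change of Adsl was 0.22 on the log2 scale (SE 0.36, edgeR adjusted p = 0.895). It became −0.03 without RA replicate 4, and 0.05 (−0.24 to 0.34) without both libraries. Over the 6 other libraries its coefficient of variation was 5.87%, the lowest of the 10 genes.

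Ak1, the adenylate kinase of muscle cytoplasm, was the most abundant of the set and had a lower mean in RA+Dipy without passing the test. Its gene lies on chromosome 2 at 32621758 to 32635058. It stood at 2860, 1775, 2467 and 4180 CPM in RA and at 1835, 2239, 2065 and 1620 CPM in RA+Dipy. Of the RA libraries, 3 lay above all RA+Dipy libraries, and RA replicate 2 lay among them. This gave a log2 fold change of −0.54 (SE 0.33, interval −1.26 to 0.18, edgeR adjusted p = 0.882), and −0.25 (−0.72 to 0.21) without the 2 libraries that stood apart.

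The phosphoribosyl transferases of salvage had fold changes of opposite sign. Aprt (chromosome 8, 122574635 to 122576909) stood at 32.9, 23.5, 31.0 and 70.3 CPM in RA and at 36.5, 23.6, 20.8 and 18.3 CPM in RA+Dipy. The highest value was RA replicate 4, and RA+Dipy replicate 1 was the highest of its group. The log2 fold change was −0.67 (SE 0.37, interval −1.50 to 0.17, edgeR adjusted p = 0.882). Without both of those libraries it was −0.47 (−0.83 to −0.11), with an unadjusted p of 0.0162 and an edgeR adjusted p of 0.418. RA replicate 2, at 23.5 CPM, lay just below RA+Dipy replicate 2 at 23.6 CPM, so the groups overlapped there too.

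Hprt (chromosome X, 52988137 to 53021659), often used as a reference gene in muscle, stood at 26.8, 28.2, 28.7 and 8.11 CPM in RA and at 51.0, 28.4, 28.2 and 22.4 CPM in RA+Dipy. The libraries that stood apart were the extremes in opposite directions, and the other 6 spanned 22.4 to 28.7 CPM. The log2 fold change of 0.50 (SE 0.41, edgeR adjusted p = 0.882) was −0.07 (−0.38 to 0.23) without them. The per-length ratio of Hprt to Aprt was 1.02 to 1.51 in RA replicates 1 to 3 and 1.51 to 1.75 in the RA+Dipy libraries. In RA replicate 4 it was 0.145.

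**Figure D3:**
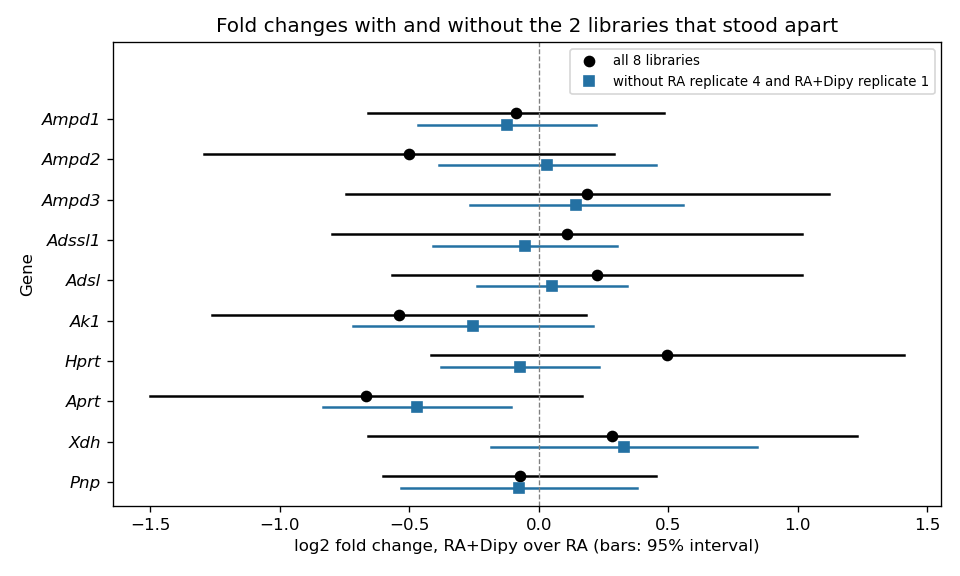
Log2 fold change of RA+Dipy over RA for each gene with its 95% interval, from edgeR with all 8 libraries (black circles) and without RA replicate 4 and RA+Dipy replicate 1 (blue squares). All black intervals cross 0; of the blue ones, that of Aprt (−0.83 to −0.11) does not, at an adjusted p of 0.418.

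The breakdown enzymes were low in this muscle. Xdh (chromosome 17, 73883895 to 73950196), whose product makes uric acid and which in many tissues is found in capillary endothelium, stood at 13.7, 25.2, 23.8 and 8.71 CPM in RA. In RA+Dipy it stood at 9.04, 22.1, 25.7 and 30.1 CPM. The low libraries were RA replicates 1 and 4 and RA+Dipy replicate 1. Xdh had a log2 fold change of 0.28 (SE 0.42, interval −0.66 to 1.23, edgeR adjusted p = 0.893), and 0.33 (−0.18 to 0.84) without the 2 libraries that stood apart. Of 9 endothelial markers, 6 lay below and 3 above their own median over the 8 libraries in RA replicate 4, and the counts were equal in RA+Dipy replicate 1. The summed level of the 9 markers ranged from 326 to 424 CPM in RA and from 233 to 408 CPM in RA+Dipy. RA replicate 4 had the highest sum, of which Egfl7 alone made up 172 CPM, against 24.1 to 53.2 CPM in the other libraries. The part of endothelial content in the Xdh values was not tested, and in whole muscle fewer cells of a type cannot be told apart from less RNA per cell.

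Pnp (chromosome 14, 50931082 to 50965237) stood at 2.84, 2.74, 3.55 and 2.54 CPM in RA and at 2.51, 2.73, 2.69 and 3.16 CPM in RA+Dipy, from 30 to 144 reads per library. The log2 fold change was −0.07 (SE 0.24, edgeR adjusted p = 0.948). The value is uncertain as a level: 23.9% of the 100-nt windows of its longest transcript also occur in transcripts of other genes, among them its tandem copy Pnp2 and the overlapping Gm49342. Reads from those windows can be discarded or split by the counting. Pnp2 itself had 1 to 9 reads per library and was not tested.

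The 10 genes did not shift together in the libraries that stood apart. In RA replicate 4, 7 of the 10 lay more than 2-fold from their median over the 8 libraries, 2 higher and 5 lower. The share over all well expressed genes in that library was 40.9%. Adssl1, Adsl, Ampd3, Hprt and Xdh deviated by −1.71, −1.63, −1.62, −1.79 and −1.39 (log2 CPM). Aprt, Ampd2 and Ak1 deviated by 1.38, 1.04 and 0.96, while Ampd1 (−0.20) and Pnp (−0.11) stayed near the median. In RA+Dipy replicate 1, 1 of the 10 lay beyond 2-fold (20.1% of well expressed genes), Xdh at −1.34. Next came Ampd2 (−0.96), Ampd3 (−0.95) and Hprt (0.85). In the other 6 libraries 0 of the 10 lay beyond 2-fold (0.0432% to 0.842% of well expressed genes). The farthest value there was −0.75, for Xdh in RA replicate 1. As a result the per-length ratio of Ampd1 to Adssl1 was 1.92 in RA replicate 4 and 0.642 to 0.843 in the other libraries. The GC content of the longest transcripts ran from 40.1% for Hprt, the lowest in RA replicate 4, to 58.9% for Aprt, the highest there. Ampd2 had 56.8% and Ak1 54.4%, but Adssl1, also low in that library, had 55.5%. Adsl, Xdh and Ampd3, low there too, had 48.75%, 49.75% and 50.3%. Pnp and Ampd1, which stayed near the median, had 46.0% and 48.4%. The part of base composition in these deviations was not tested.

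**Figure D4:**
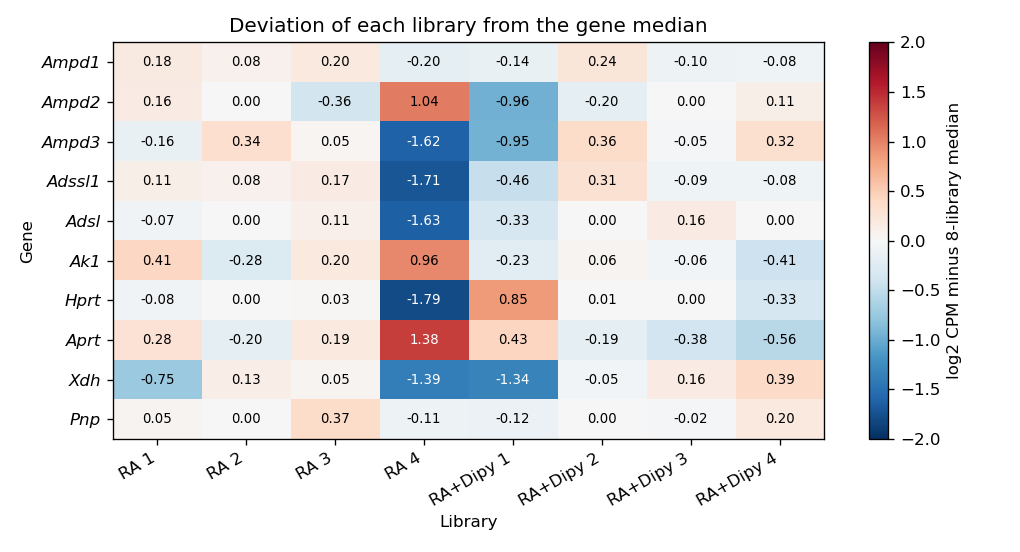
Deviation of each library (columns) from the 8-library median of each gene (rows) in log2 CPM, red above and blue below. RA replicate 4 holds values from −1.79 to 1.38, and RA+Dipy replicate 1 from −1.34 to 0.85.

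The remaining purine genes were taken from fixed lists and described in the same way. Outside the 10, 42 of 49 listed purine genes were tested. Of these 0 passed the adjusted threshold in either direction and 1 had an unadjusted p under 0.05 (3.83% over all genes); 27 fold changes were above 0 and 15 below, with a median of 0.10. Without the libraries that stood apart, 24 were above 0 and 18 below (median 0.02), and 5 had an unadjusted p under 0.05, beside 11.4% of all genes: Lacc1 at 1.15 on the log2 scale, Nme6 at −0.52, Dguok at −0.42, Impdh2 at −0.32 and Ak6 at −0.30, with edgeR adjusted p-values of 0.418 to 0.434. In the fit of all 8 libraries the gene was Dguok, the mitochondrial deoxyguanosine kinase: 19.7, 13.5, 17.1 and 24.5 CPM in RA and 11.3, 14.8, 11.0 and 11.7 CPM in RA+Dipy (log2 −0.61, SE 0.25, edgeR adjusted p = 0.882). RA replicate 2 lay below RA+Dipy replicate 2, so the groups overlapped. Gda, the deaminase that turns guanine into xanthine, a substrate of Xdh, stood at 0.64 on the log2 scale (SE 0.29), and its mean was 8.71 ± 1.87 CPM without the drug and 13.5 ± 4.44 CPM with it (SD over 4 libraries). Without RA+Dipy replicate 1 the log2 value of Gda was 0.42.

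The lists by role also count those of the 10 genes that belong to them. Over all genes tested, 52.2% of fold changes were above 0. The purine nucleotide cycle list had 4 fold changes above 0 and 2 below (median 0.15), with Adss at 0.26 (SE 0.23). Nucleotide kinases were split 6 and 6 (median −0.01), with Nme6 at −0.63 (SE 0.33) and the guanylate kinase Guk1 at −0.68 (SE 0.54). Without RA replicate 4, Guk1 stood at 0.03 and Nme6 at −0.32. Salvage and breakdown genes had 9 above 0 and 3 below (median 0.30). The nucleotidase list, where some of the enzymes remove the phosphate from AMP or IMP, had 5 above and 3 below (median 0.19). In it the ectonucleotidase Nt5e stood at 0.82 (SE 0.46) and Nt5c at −0.34 (SE 0.27). De novo synthesis had 6 above and 3 below (median 0.09), with the phosphoribosyl pyrophosphate synthetase Prps2 at 0.59 (SE 0.31) and its associated protein Prpsap1 at −0.50 (SE 0.27). The guanine nucleotide list, which holds GMP reductases beside the enzymes of synthesis, had 2 above and 3 below (median −0.25). The GMP reductase Gmpr stood at −0.70 (SE 0.46) and the IMP dehydrogenase Impdh2 at −0.28 (SE 0.22). Gmpr read 679 CPM in RA replicate 4, above the 138 to 318 CPM of all other libraries. Without the libraries that stood apart, the medians of these 6 lists were 0.04, −0.18, 0.12, −0.03, 0.11 and −0.04 in the same order, and Nt5e, Prpsap1 and Gmpr stood at 0.43, −0.18 and −0.37. In none of these lists did a gene pass the adjusted threshold of edgeR.

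Neighbouring energy systems showed the same lack of calls. The phosphocreatine list, whose kinases rebuild ATP beside adenylate kinase, had 2 above 0 and 4 below (median −0.26). Within it, Ckb stood at −1.38 (SE 0.75), from 156 CPM in RA replicate 4, and at 0.10 without that library. Gamt, which completes creatine synthesis, stood at −0.73 (SE 0.39). The AMP-activated protein kinase list, which senses AMP, had 5 above and 3 below (median 0.13), with the regulatory subunit Prkag1 at −0.66 (SE 0.32) and at −0.33 without RA replicate 4. Stk11, the kinase that activates it, was the 1 gene of 77 tested on these lists whose groups did not overlap (2.72% of all genes): 165, 140, 148 and 165 CPM in RA and 64.1, 134, 107 and 118 CPM in RA+Dipy. Its log2 fold change was −0.55 (SE 0.27, edgeR adjusted p = 0.882), and −0.33 without the libraries that stood apart. The denervation and atrophy list was included because Ampd3 is known to rise in wasting muscle. It had 4 above and 7 below (median −0.17), with Myog at −0.81 (SE 0.39) and the acetylcholine receptor subunit Chrna1 at −0.65 (SE 0.38). Leaving out both libraries that stood apart gave a median of 0.05, with Myog at −0.39, Chrna1 at −0.14, Ckb at −0.30 and Gamt at −0.31.

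**Figure D5:**
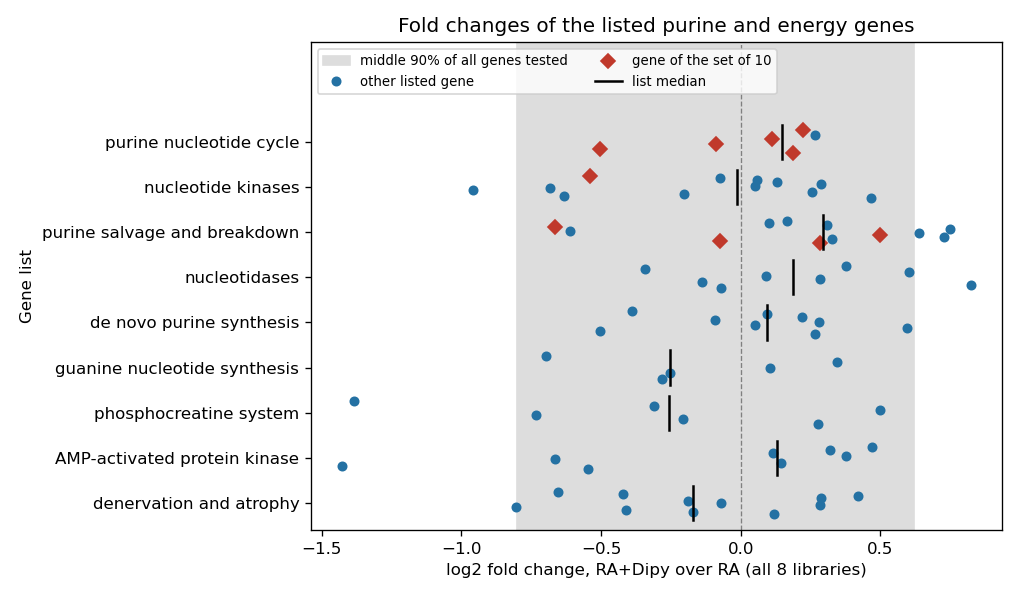
Log2 fold change (RA+Dipy over RA, all 8 libraries) of every tested gene of the 9 lists, with the 10 genes as red diamonds, other genes as blue circles and list medians as black bars. Grey marks the middle 90% of all genes tested (−0.80 to 0.62), and all 10 diamonds lie inside it.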

How the data were processed

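Each file held raw counts of reads per protein-coding gene symbol, as the authors deposited them, 1 file per library. The design text and the submitters' processing notes name fastp 0.20.0 for trimming the 100-nt reads, STAR 2.7.3a for alignment to GRCm38.p6 and HTSeq for counting without strand. No annotation release is named in those sources. The labels name a TruSeq kit and the design text a directional NEBNext kit. Samples were grouped by title. Each library is a separate mouse by the group sizes that the design gives, and no pair within a group agreed within sampling noise (smallest chi-square per degree of freedom 27.7). The reads carry no molecular identifiers, so counting error is a lower limit of the error.

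Counts of 24 repeated symbols were summed, giving 21833 symbols. Genes were kept by filterByExpr (minimum count 10), scaled by TMM and tested in edgeR 4.0.16 by quasi-likelihood (R 4.3.3, robust, group as the sole term), two-sided, with Benjamini-Hochberg adjustment over 12755 genes. SE is the log2 fold change over the root of F, and intervals are 95%. CPM use TMM sizes; log2 CPM add a prior count of 2. A count of 0 allows up to 3 counts, 0.0591 to 0.254 CPM by library. RPKM divide CPM by the union of GENCODE vM21 exons. On data simulated with the spread of all 8 libraries the test found 73 of 100 4-fold changes put in and 3 of 100 2-fold ones. With the spread taken without RA replicate 4 and RA+Dipy replicate 1 it found 99 and 74 of 100. Unchanged genes called numbered 5 with the first spread and 9 with the second. Both simulations kept 8 libraries, 4 per group. The second therefore does not give the recovery of the fit without those libraries, nor of the fit to all 8. Each gene was drawn on its own, so shifts shared across a library were not simulated. DESeq2 1.42.0 and limma 3.58.1 were alternatives. The 10 genes, the lists and the alternatives were chosen with earlier results of these data known. Named besides the 10 were the 2 genes with the smallest p of each list. The gene most like it was named for Ak1, Ampd3, Adsl, Hprt, Ampd1 and Aprt. Values of other genes were chosen after they were seen. They were the tandem copy Pnp2 and the overlapping gene Gm49342, the markers Alas2, Fabp4, Egfl7, Tnnc2, Atp2a1 and Pvalb, and Lacc1 and Ak6.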

Additional observations from a re-analysis of the deposited data

Results flagged for a closer look

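In 54 groups of 4 libraries (27 named genes in each group), 4 held a value whose gap to its nearest neighbour took nearly the whole range of the group on the log2 CPM scale; chance gives about 1 in 20. RA replicate 4 was the low value in 3 of them, at 276 CPM for Adssl1 (955 to 1014 in the other RA libraries), 34.9 CPM for Adsl (104 to 117) and 8.11 CPM for Hprt (26.8 to 28.7). In the fourth, RA+Dipy replicate 2 was the high value for Ampd1, at 1219 CPM against 938 to 981. Taken on CPM instead, 6 groups passed the same limit: these 4, Ckb in RA, where RA replicate 4 was the high value at 156 CPM, and Dguok in RA+Dipy, where replicate 2 was the high value at 14.8 CPM.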

How the results depend on the processing

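Each of 18 alternative fits called 0 of the 10 genes, and 17 of them called 0 genes in all; limma-voom with library weights called 133 (RA replicate 4 had a weight of 0.110 and RA+Dipy replicate 1 of 0.174). Ampd1, Ak1, Aprt and Xdh kept the sign of their fold change in all 18, from −0.20 to −0.03, −0.71 to −0.25, −0.91 to −0.21 and 0.07 to 0.54. With library weights the sign changed for Ampd2 (0.073), Adssl1 (−0.12) and Hprt (−0.0067). Without RA replicate 4 it changed for Ampd3 (−0.066), Adssl1 (−0.17), Adsl (−0.032), Guk1 (0.031) and Ckb (0.097). Without RA+Dipy replicate 2 it changed for Adssl1 (−0.036), and without RA replicate 3 for Pnp (0.029). Without both libraries that stood apart it changed for Ampd2 (0.033), Adssl1 (−0.054) and Hprt (−0.074). Leaving out 1 library at a time gave −0.066 to 0.41 for Ampd3, −0.17 to 0.23 for Adssl1, −0.032 to 0.36 for Adsl, −0.14 to 0.029 for Pnp, −1.18 to 0.031 for Guk1 and −1.76 to 0.097 for Ckb. The cause was not tested. Genes at an unadjusted p under 0.05 numbered 1187 when RA replicate 2 was left out, 296 when it was RA replicate 1, and 184 and 178 when it was RA+Dipy replicate 3 or 4. No scaling alternative changed a sign among the named genes. Aprt had its smallest adjusted p, 0.0682, with library weights, in a range up to 0.998. With the longest transcript as length, Ampd1, Adsl, Aprt and Pnp stood at 363, 26.6, 34.6 and 0.967 RPKM. The correlations of same-numbered libraries were −0.31, 0.17, 0.26 and −0.43, and 1 of 8 libraries correlated best with its own number. RA replicate 4 and RA+Dipy replicate 1, which carry different numbers, correlated at 0.43. With those libraries present, the correlations cannot decide whether the numbers pair the samples. The fit with the replicate number as a block called 0 genes (165 at the unadjusted threshold). Depth limits Pnp, Ampd2 and Ampd3 most (29 reads for Ampd3 in RA replicate 4).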

Other observations

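The genes most like each of the 10 were those with the smallest root mean square difference in centred log2 CPM over the 8 libraries. Nearest to Ak1 was the translation factor Eef1a2 of adult muscle (difference 0.0423), nearest to Ampd3 the muscle protein gene Cmya5 (0.0731), nearest to Adsl the co-chaperone Dnaja3 (0.0422), and nearest to Hprt the nucleolar Nol7 (0.0634). For Ampd1 it was Usp39 (0.0565), and for Aprt Pym1 (0.0722). RA replicate 4 was the library farthest from the median for Ak1, Ampd3, Adsl, Hprt, Aprt, Adssl1, Ampd2 and Xdh. For Ampd1 it was RA+Dipy replicate 2, and for Pnp RA replicate 3.

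Haemoglobin transcripts were high in the libraries where Ampd3, the deaminase form of red blood cells, was lowest. The summed level of 6 erythroid markers was 1545 CPM in RA replicate 4 and 799 CPM in RA+Dipy replicate 1, against 149 to 274 CPM in the other 6 libraries. Ampd3 stood at 2.45 and 3.96 CPM in these libraries. Among the markers, Alas2, the erythroid haem synthesis enzyme, was lowest in the same libraries, at 0.169 and 0.594 CPM against 2.38 to 4.21. Neutrophil markers summed to 0.641 to 3.83 CPM over all libraries, with Cxcr2, Ly6g and Mpo at 0 counts in at least 1 library. Macrophage markers summed to 137 to 324 CPM in RA and 193 to 388 CPM in RA+Dipy, with 10 of 11 fold changes above 0 (median 0.77) and 5 at an unadjusted p under 0.05. Adipocyte markers summed to 220 to 352 CPM in RA and 290.1 to 903 CPM in RA+Dipy, with 6 of 6 above 0 (median 1.42) and 3 at that level. Of the Schwann cell markers 5 of 5 lay below 0 (median −0.98), 3 of them at that level, and of the slow fibre markers 6 of 7 (median −0.56). The median over all genes tested was 0.02, and 3.83% reached that level. edgeR called 0 markers of these 4 lists after adjustment. Without the libraries that stood apart the 4 medians were 0.69, 2.05, −0.51 and −0.69. Fibroblast markers had 4 of 5 fold changes above 0 (median 0.59), 2 of them at an unadjusted p under 0.05 in edgeR and 0 called. Their median was 0.71 in the fit without those libraries. RA+Dipy replicate 4, which stayed in that fit, held the highest adipocyte sum, 903 CPM. RA+Dipy replicates 1 to 3 held 591, 290 and 320 CPM. Adipoq, Plin1, Cidec, Lep and Pck1 were each highest in replicate 4 of RA+Dipy. Fabp4 was highest in RA+Dipy replicate 1, at 554 CPM, beside 527 CPM in replicate 4. The part of these cell types in the values of the 10 genes was not tested.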
